A study of Homo sapiens with 12 samples.

Results

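Expression is described here for 10 genes of the BCL2 family of apoptosis regulators, found by gene symbol among the 23195 genes that the 2 Nutlin-3a tables list. Each symbol matched 1 gene, and all 10 genes were listed in all 4 tables of the study. Of the 10, 8 promote cell death (BAX, BAK1, BBC3, PMAIP1, BID, BIK, BCL2L11 and BMF, below called killers) and 2 restrain it (BCL2L1 and MCL1, below called protectors). The cells were HCT116, an established human colorectal carcinoma line with intact p53, so every value comes from a single line. They carried either siControl, the control siRNA, or siRFX7, which targets the transcription factor RFX7. Treatment was 10 µM Nutlin-3a, which frees p53 from its inhibitor MDM2, or the solvent DMSO, in each case for 24 h. The 2 siRNAs and 2 treatments gave 4 groups of 3 polyA RNA-seq libraries, 12 in all. The labels do not say how many siRNAs targeted RFX7 or which sequences they had, nor that replicates were separate cultures, so the p-values measure only the spread between these libraries, which may be technical.

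Mitochondrial apoptosis is decided by contacts between proteins of this family. BAX and BAK1 are the effectors that open the outer mitochondrial membrane and let cytochrome c out. The protectors BCL2L1 (BCL-XL) and MCL1 hold effectors and BH3-only proteins in check, and the BH3-only proteins BBC3 (PUMA), PMAIP1 (NOXA), BID, BIK, BCL2L11 (BIM) and BMF block protectors or activate effectors. BAX, BBC3 and PMAIP1 are textbook p53 target genes. In HCT116 cells, p53 activation by Nutlin-3a is known mainly for cell cycle arrest. The comparisons below ask how the killers and protectors responded to p53 activation with and without RFX7, itself a transcription factor that p53 signalling can activate.

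The values are statistics of groups in tables that the authors made with DESeq2, and values of single libraries were not used here. A group mean below is a mean of normalized counts, recovered from the deposited mean and fold changes. The SD after it is the spread between 3 replicates that the authors' model implies for that gene. The siRNA target RFX7 had recovered means of 944 and 1332 normalized counts in siControl (DMSO, Nutlin-3a) and of 185 and 302 in siRFX7. MDM2, a p53 target, had recovered means of 4705 and 74982 in siControl and 6591 and 64905 in siRFX7. Mean normalized counts summed to 26801484, and replicate coefficients of variation were 3.01% to 8.28% for the 9 members with a mean of at least 100. BMF, with a mean of 24.0, was the exception and is measured less precisely. Of 8 markers of colorectal epithelium, 7 were listed and 5 had a mean of at least 100, with VIL1 at 8.0, CDH17 at 1.41 and LGALS4 not listed. Of 12 markers of blood cells, fibroblasts and endothelium, 6 were listed, and COL1A1 at 441 was the only one with a mean of at least 100. In bulk RNA, fewer cells of a kind and less RNA per cell cannot be told apart.

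All 10 genes passed the test for a Nutlin-3a response under both siRNAs, though the siControl rise of BCL2L11 was lost under other scalings, leaving 8 risen members there. In siControl, 9 members rose and 1, BMF, fell, by DESeq2 adjusted p below 0.05 (from the authors' deposited table), where 22% of the 23195 genes rose and 21.2% fell. In siRFX7, 9 rose and BMF fell again, where 21.7% of all genes rose and 19.7% fell. The shares over all genes, here and below, include genes of low mean. Adjusted over only the 12463 genes with a mean of at least 100, as 9 members had, 4334 rose and 4131 fell in siControl. In siRFX7, 4382 of them rose and 3737 fell. The median log2 fold change of the 8 killers was 0.77 under siControl and 0.96 under siRFX7, computed from the authors' deposited tables, beside medians over all genes of 0.02 and -0.02. For the 2 protectors it was 0.62 and 0.52. The rises differed with the siRNA for 4 genes: that of BAK1 was larger in siRFX7, and those of BAX, BBC3 and BIK were smaller on the log2 scale. Over all 23195 genes, 3.28% of such differences were called above 0 and 2.92% below.

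**Figure D1:**
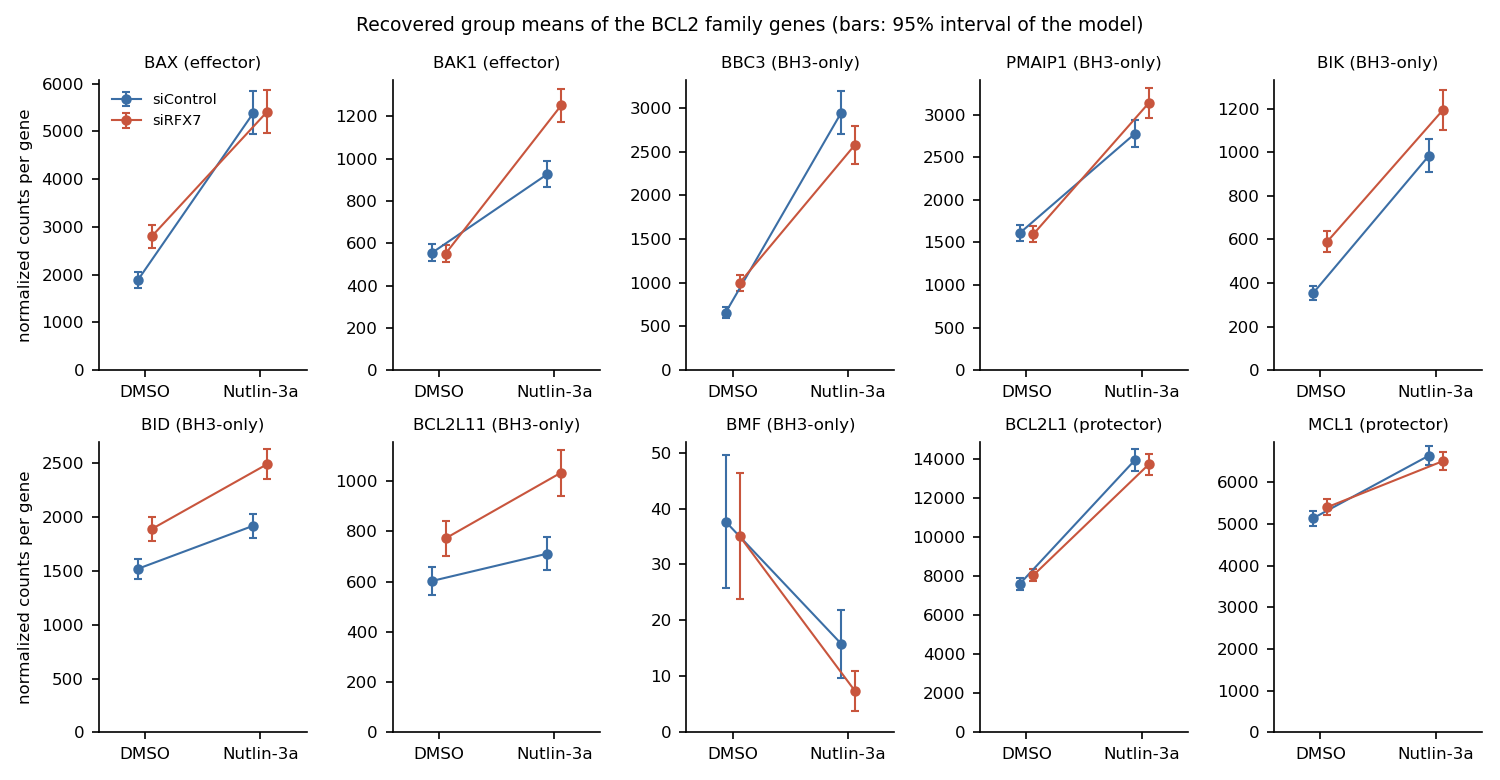
Recovered mean normalized counts (vertical axis, linear, from 0) of the 10 genes in DMSO and Nutlin-3a, with siControl in blue and siRFX7 in red and bars for the 95% interval of the model with 3 libraries a group. BAX and BBC3 start higher in siRFX7 than in siControl, BAK1 starts level and ends higher, and BID, BIK and BCL2L11 are higher in siRFX7 at both ends.

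The effector gene BAX (ENSG00000087088, chromosome 19 from 48954815 to 48961798, plus strand, GRCh38) had a mean of 1889 ± 144 normalized counts (SD, n = 3) in siControl DMSO and 5390 ± 400 (SD, n = 3) in siControl Nutlin-3a. In siRFX7 it had 2804 ± 211 in DMSO and 5417 ± 402 in Nutlin-3a (modelled SD, n = 3 each). The siRFX7 cells thus had more BAX RNA before treatment, and both Nutlin-3a groups had nearly the same mean. In the authors' deposited table, BAX rose 2.85-fold under siControl (log2 fold change 1.51, standard error 0.09, DESeq2 adjusted p = 1.23e-63). Under siRFX7 it rose 1.93-fold (from the authors' deposited table, 0.95, standard error 0.09, DESeq2 adjusted p = 5.42e-26). The difference of these log2 fold changes was -0.56 (95% interval -0.81 to -0.32, adjusted p = 0.00034 by a z test over all genes). Without Nutlin-3a, siRFX7 raised BAX 1.48-fold (from the authors' deposited table, with DESeq2 adjusted p = 3.99e-09). With Nutlin-3a, the siRFX7 effect was a log2 fold change of 0.01 (from the authors' deposited table, 95% interval -0.16 to 0.18, DESeq2 adjusted p = 0.965). Counted as a gain in normalized counts, BAX rose by 3501 in siControl and 2613 in siRFX7, a difference of -888 that did not pass the test over all genes (95% interval -1592 to -184, adjusted p = 0.106, z test).

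BAK1, the other effector (ENSG00000030110, chromosome 6 from 33572547 to 33580293, minus strand, GRCh38), responded more strongly under siRFX7. Its means were 554 ± 35.7 and 926 ± 54.1 in siControl (DMSO, Nutlin-3a) and 551 ± 35.5 and 1251 ± 70.1 in siRFX7 (normalized counts, modelled SD, n = 3 each). The DMSO groups lay within 1 SD of each other, and siRFX7 with Nutlin-3a was the highest group. BAK1 rose 1.67-fold under siControl and 2.27-fold under siRFX7 (from the authors' deposited tables, log2 0.74 and 1.18, standard error 0.07 each, DESeq2 adjusted p = 2.31e-23 and 5.71e-61). The difference was 0.44 (95% interval 0.24 to 0.64, adjusted p = 0.000645, z test). It held on the scale of counts too, with gains of 372 and 700 normalized counts (adjusted p of the difference 1.51e-06, z test). Under Nutlin-3a, siRFX7 raised BAK1 1.35-fold (from the authors' deposited table, with DESeq2 adjusted p = 3.27e-09), while in DMSO the log2 fold change was -0.01 (DESeq2 adjusted p = 0.963).

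BAK1 has a processed pseudogene, BAK1P1, with a mean of 327 normalized counts, and how the counting split reads between them is not given in the sources used here. BAK1P1 had log2 fold changes of 0.78 under siControl and 1.16 under siRFX7 (from the authors' deposited tables), close to those of BAK1, and their difference of 0.38 did not pass (adjusted p = 0.112, z test). With both genes summed, the difference of responses was 0.42 (adjusted p = 2.92e-05, z test). That test treated the errors of BAK1 and BAK1P1 as independent, which was not tested. If their counts vary together, the p-value is too small, so it is not firmer evidence than that of BAK1 alone. The promoter of BAK1 is shown because it was the only one of 8 members' promoters to hold an exact copy of the 10-base p53 motif. The stretch is from RefSeq promoters on GRCh38.p14, chr6:33580310-33580379, read 5′ to 3′ on the minus strand, with the motif in capitals 73 bases before the start:
BAK1 promoter: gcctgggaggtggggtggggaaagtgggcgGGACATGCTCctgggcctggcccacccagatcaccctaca
Such a copy, searched on both strands, was found in 6.63% of 35114 RefSeq promoter windows of 300 bases, so the match is a description of letters only.

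**Figure D2:**
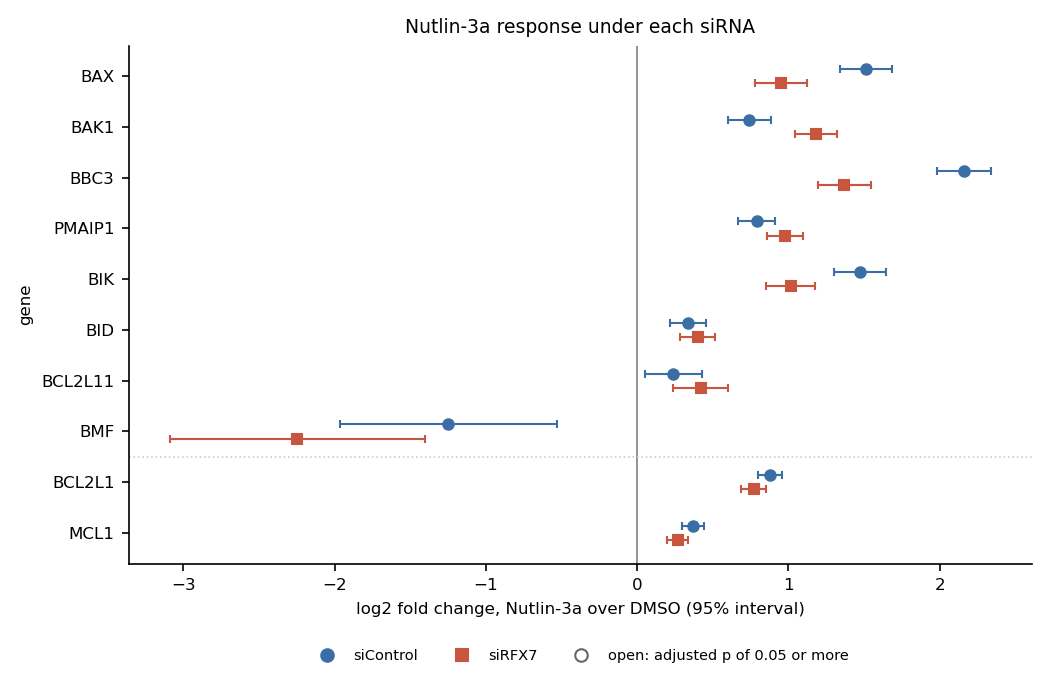
Log2 fold change with Nutlin-3a over DMSO (horizontal axis) for each of the 10 genes in siControl (blue circles) and siRFX7 (red squares), with 95% intervals and a dotted line between killers and protectors. The siRFX7 points lie left of siControl for BAX (0.95 against 1.51), BBC3 (1.37 against 2.16) and BIK (1.02 against 1.47), and right of it for BAK1 (1.18 against 0.74).

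Among BH3-only genes, BBC3 had the largest rise with Nutlin-3a under both siRNAs. BBC3 encodes PUMA, a strong activator of apoptosis (ENSG00000105327, chromosome 19 from 47220822 to 47232766, minus strand, GRCh38). Its means were 660 ± 53.8 and 2945 ± 218 in siControl (DMSO, Nutlin-3a) and 998 ± 78.2 and 2580 ± 192 in siRFX7 (normalized counts, modelled SD, n = 3 each). The siRFX7 mean was higher in DMSO and lower in Nutlin-3a, though the Nutlin-3a groups were less than 2 SD apart. BBC3 rose 4.47-fold under siControl and 2.58-fold under siRFX7 (from the authors' deposited tables, log2 2.16 and 1.37, standard error 0.09 each, DESeq2 adjusted p = 1.32e-120 and 4.10e-51). The difference of -0.79 was the largest among the called members (95% interval -1.04 to -0.54, adjusted p = 9.80e-08, z test). In counts the gains were 2286 and 1582, a difference of -704 that also passed the test (adjusted p = 0.00155, z test). In DMSO, siRFX7 raised BBC3 1.51-fold (from the authors' deposited table, with DESeq2 adjusted p = 4.50e-09). With Nutlin-3a the siRFX7 log2 fold change was -0.19 (from the authors' deposited table), which did not pass (95% interval -0.36 to -0.02, DESeq2 adjusted p = 0.0874). The lower response of BBC3 on the log2 scale was thus accompanied by a higher DMSO level, and its treated level was not called lower.

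BIK, a BH3-only gene whose product sits mainly at the endoplasmic reticulum (ENSG00000100290, chromosome 22 from 43110748 to 43129712, plus strand, GRCh38), showed a scale-dependent difference. Its means were 355 ± 28.6 and 985 ± 67.3 in siControl (DMSO, Nutlin-3a) and 590 ± 43.2 and 1194 ± 80.0 in siRFX7 (normalized counts, modelled SD, n = 3 each). Both siRFX7 groups were above their siControl partners. BIK rose 2.77-fold under siControl and 2.02-fold under siRFX7 (from the authors' deposited tables, log2 1.47 and 1.02, DESeq2 adjusted p = 4.43e-61 and 1.36e-33). The difference was -0.46 on the log2 scale (95% interval -0.69 to -0.22, adjusted p = 0.00501, z test). In counts the gains were 629 and 603, a difference of -26.1 with a 95% interval of -158 to 106 (adjusted p = 0.902, z test). SiRFX7 raised BIK 1.66-fold in DMSO and 1.21-fold in Nutlin-3a (from the authors' deposited tables, with DESeq2 adjusted p = 2.31e-14 and 0.003).

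PMAIP1, which encodes NOXA, a partner and antagonist of MCL1 (ENSG00000141682, chromosome 18 from 59899948 to 59904306, plus strand, GRCh38), did not differ in DMSO between the siRNAs by the test. Its means were 1608 ± 85.4 and 2779 ± 141 in siControl (DMSO, Nutlin-3a) and 1598 ± 84.9 and 3140 ± 157 in siRFX7 (normalized counts, modelled SD, n = 3 each). Both treated groups stood well above both DMSO groups. PMAIP1 rose 1.73-fold under siControl and 1.96-fold under siRFX7 (from the authors' deposited tables, log2 0.79 and 0.97, DESeq2 adjusted p = 7.51e-37 and 2.09e-56). The difference of 0.19 did not pass (95% interval 0.02 to 0.35, adjusted p = 0.240, z test). Under Nutlin-3a, PMAIP1 was 1.13-fold higher with siRFX7, though not at an adjusted p below 0.01 (from the authors' deposited table, with DESeq2 adjusted p = 0.0141). Its promoter is shown because it alone among the members with a window held the 20-base p53 motif at up to 3 mismatches and no spacer. The stretch is chr18:59899781-59899860 (RefSeq, GRCh38.p14, plus strand), with the match in capitals 185 bases before the start and 3 mismatches to the motif:
PMAIP1 promoter: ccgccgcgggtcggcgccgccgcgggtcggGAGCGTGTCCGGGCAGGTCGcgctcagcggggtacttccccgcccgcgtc
This loose match was found in 5.2% of the 35114 windows.

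BID and BCL2L11 had small responses to Nutlin-3a and, like BIK, a higher level under siRFX7 in both treatments. BID (ENSG00000015475, chromosome 22 from 17734138 to 17774770, minus strand, GRCh38) links death receptors to mitochondria after caspase cleavage. Its means were 1518 ± 80.6 and 1918 ± 99.3 in siControl (DMSO, Nutlin-3a) and 1887 ± 97.9 and 2489 ± 126 in siRFX7 (normalized counts, modelled SD, n = 3 each). The untreated siRFX7 group was level with the treated siControl group. Nutlin-3a raised BID 1.26-fold under siControl and 1.32-fold under siRFX7 (from the authors' deposited tables, with DESeq2 adjusted p = 2.54e-07 and 2.46e-10), and the log2 difference was 0.06 (95% interval -0.11 to 0.23, adjusted p = 0.842, z test). SiRFX7 raised BID 1.24-fold in DMSO and 1.30-fold in Nutlin-3a (from the authors' deposited tables, with DESeq2 adjusted p = 4.45e-06 and 9.82e-09).

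BCL2L11 (ENSG00000153094, chromosome 2 from 111119378 to 111168447, plus strand, GRCh38) encodes BIM, which binds every major protector. Its means were 602 ± 49.8 and 711 ± 57.7 in siControl (DMSO, Nutlin-3a) and 772 ± 62.2 and 1033 ± 81.1 in siRFX7 (normalized counts, modelled SD, n = 3 each). Nutlin-3a raised it 1.18-fold under siControl and 1.34-fold under siRFX7 (from the authors' deposited tables, with DESeq2 adjusted p = 0.0322 and 2.98e-05). The siControl rise is the smallest of the 9 and does not pass an adjusted p of 0.01. It was 0.22 on the log2 scale, and no longer passed 0.05, both with equal group totals and with the median of all genes set to 0. The log2 difference was 0.18 (95% interval -0.08 to 0.44, adjusted p = 0.590, z test). SiRFX7 raised BCL2L11 1.28-fold in DMSO and 1.45-fold in Nutlin-3a (from the authors' deposited tables, with DESeq2 adjusted p = 0.00122 and 1.71e-07). The opposite-strand gene MIR4435-2HG (mean 253) shares 727 bases, or 10.9%, of the BCL2L11 exons, and the strand setting of the counting is not given in the sources used here.

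Among the 8 killers listed here, BMF alone fell with Nutlin-3a (ENSG00000104081, chromosome 15 from 40087890 to 40108892, minus strand, GRCh38). Its product links the cytoskeleton to protectors. Its means were 37.7 ± 10.5 and 15.8 ± 5.36 in siControl (DMSO, Nutlin-3a) and 35.1 ± 9.92 and 7.40 ± 3.20 in siRFX7 (normalized counts, modelled SD, n = 3 each). With Nutlin-3a it fell to 42.1% of the DMSO level under siControl and to 21.1% under siRFX7 (from the authors' deposited tables, log2 -1.25 and -2.24, DESeq2 adjusted p = 0.00202 and 8.95e-07). The difference of -0.997 had a 95% interval of -2.10 to 0.11 (adjusted p = 0.394, z test), too wide at this depth to tell the 2 falls apart. The siRFX7 log2 fold changes were -0.10 in DMSO and -1.10 in Nutlin-3a (from the authors' deposited tables), and neither passed (DESeq2 adjusted p = 0.865 and 0.0563). Its promoter is shown because RFX factors are known to bind X-box motifs, and among the members only BMF held the X-box core CATGGNAAC on either strand. The stretch is chr15:40108992-40109060 (RefSeq, GRCh38.p14, minus strand), with the core, here in the reverse orientation, in capitals 151 bases before the start:
BMF promoter: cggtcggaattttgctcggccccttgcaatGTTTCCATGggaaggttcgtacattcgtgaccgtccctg
The core was found in 1.71% of the 35114 windows. The motifs were chosen after the members' promoters had been read, and 8 of the 10 members had windows in the table.

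The protectors rose with Nutlin-3a and showed no siRNA effect that passed the test on the deposited scale. BCL2L1 (ENSG00000171552, chromosome 20 from 31664452 to 31723989, minus strand, GRCh38) encodes BCL-XL and, through another splice form, a killer, and counts per gene do not separate these forms. It was the most abundant member per kilobase of exon in every group. Its means were 7602 ± 269 and 13971 ± 483 in siControl (DMSO, Nutlin-3a) and 8061 ± 285 and 13748 ± 475 in siRFX7 (normalized counts, modelled SD, n = 3 each). BCL2L1 rose 1.84-fold under siControl and 1.71-fold under siRFX7 (from the authors' deposited tables, log2 0.88 and 0.77, standard error 0.04 each, DESeq2 adjusted p = 7.43e-99 and 1.40e-76). The difference was -0.11 (95% interval -0.22 to 0.01, adjusted p = 0.357, z test). The siRFX7 log2 fold changes were 0.08 in DMSO and -0.02 in Nutlin-3a (from the authors' deposited tables, with DESeq2 adjusted p = 0.119 and 0.736).

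MCL1, a short-lived protector (ENSG00000143384, chromosome 1 from 150574551 to 150579738, minus strand, GRCh38), had means of 5144 ± 158 and 6642 ± 200 in siControl (DMSO, Nutlin-3a) and 5404 ± 166 and 6509 ± 196 in siRFX7 (normalized counts, modelled SD, n = 3 each). MCL1 rose 1.29-fold under siControl and 1.205-fold under siRFX7 (from the authors' deposited tables, log2 0.37 and 0.27, DESeq2 adjusted p = 1.17e-23 and 4.91e-13). The difference was -0.10 (95% interval -0.20 to -0.00085, adjusted p = 0.307, z test). The siRFX7 log2 fold changes were 0.07 in DMSO and -0.03 in Nutlin-3a (from the authors' deposited tables, with DESeq2 adjusted p = 0.133 and 0.604). When the groups were instead scaled to equal totals, both DMSO values passed the test, at 0.14 for BCL2L1 and 0.13 for MCL1.

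The knockdown alone raised killers and, on the deposited scale, no protector. In DMSO, siRFX7 raised 5 members (BAX, BBC3, BIK, BID and BCL2L11) and lowered none by DESeq2 adjusted p below 0.05 (from the authors' deposited table), where 13.5% of 20026 genes were higher and 15.5% lower. Scaled to equal group totals, the share of higher genes among all calls in this comparison was 60.0% in place of 46.5%. With Nutlin-3a, 5 members were higher with siRFX7 (BAK1, PMAIP1, BIK, BID and BCL2L11) and none lower (from the authors' deposited table), where 15% of 19393 genes were higher and 13.6% lower. BIK, BID and BCL2L11 were thus raised under both treatments. The comparisons share groups with one another and are set side by side only. Adjusted over only the 12463 genes with a mean of at least 100, siRFX7 raised 2272 and lowered 3108 in DMSO. In Nutlin-3a it raised 2629 of them and lowered 2549. At an absolute log2 fold change of at least 0.58, 2 of the 5 calls in DMSO were left (BBC3 and BIK) and 0 of the 5 in Nutlin-3a. Over all genes, that minimum left 1044 higher and 503 lower of 20026 in DMSO, and 801 and 681 of 19393 in Nutlin-3a.

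**Figure D3:**
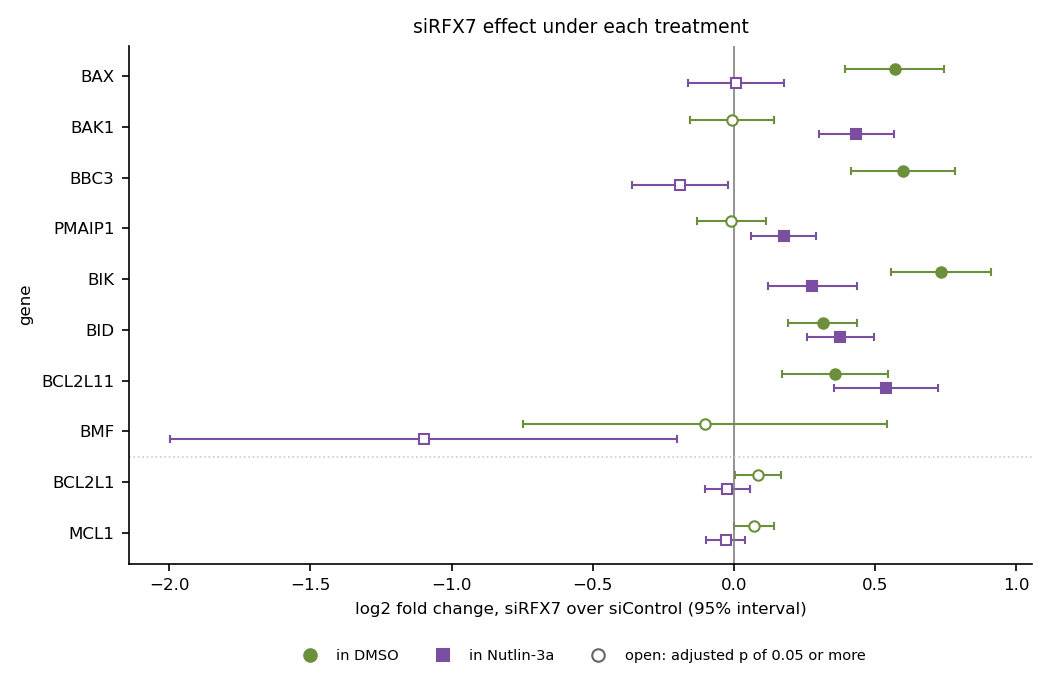
Log2 fold change of siRFX7 over siControl (horizontal axis) for each of the 10 genes in DMSO (green circles) and Nutlin-3a (purple squares), with 95% intervals and open symbols where the adjusted p was 0.05 or more. BAX and BBC3 are raised in DMSO and not in Nutlin-3a, BAK1 and PMAIP1 in Nutlin-3a and not in DMSO, and BIK, BID and BCL2L11 in both.

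The difference of the Nutlin-3a responses was called for 4 members, 1 above 0 (BAK1) and 3 below 0 (BAX, BBC3 and BIK), by the z test adjusted over 23195 genes. Over all genes, 3.28% were called above 0 and 2.92% below. Scaled to equal group totals, 42.4% of these calls were above 0 in place of 52.9%. Adjusted over only the 12463 genes with a mean of at least 100, 915 differences were called above 0 and 689 below. On the scale of counts, 1 member was called above 0 (BAK1) and 1 below (BBC3), where 6.75% of 20026 genes were above and 2.87% below. This scale was added after the data had been seen.

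The balance between killers and protectors was described by the log2 fold change of each killer minus that of each protector. In siControl with Nutlin-3a, BBC3 exceeded BCL2L1 by 1.28 and BAX exceeded it by 0.63 (computed from the authors' deposited tables). In siRFX7 these margins were 0.60 and 0.18, and the interval of the second included 0. BAK1 against BCL2L1 moved the other way, from -0.14 in siControl, with an interval that included 0, to 0.41 in siRFX7. PMAIP1 against BCL2L1 did likewise, from -0.09 to 0.20. BID and BCL2L11 rose less than BCL2L1 under both siRNAs, by margins of -0.54 and -0.64 in siControl and -0.37 and -0.35 in siRFX7. Of the 8 killers, 3 outgained BCL2L1 in siControl and 4 did in siRFX7, judged by 95% intervals, and 3 fell behind it in each. Against MCL1, 5 outgained and 1 (BMF) fell behind under both siRNAs. These counts have no share over all genes beside them and are a description only.

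**Figure D4:**
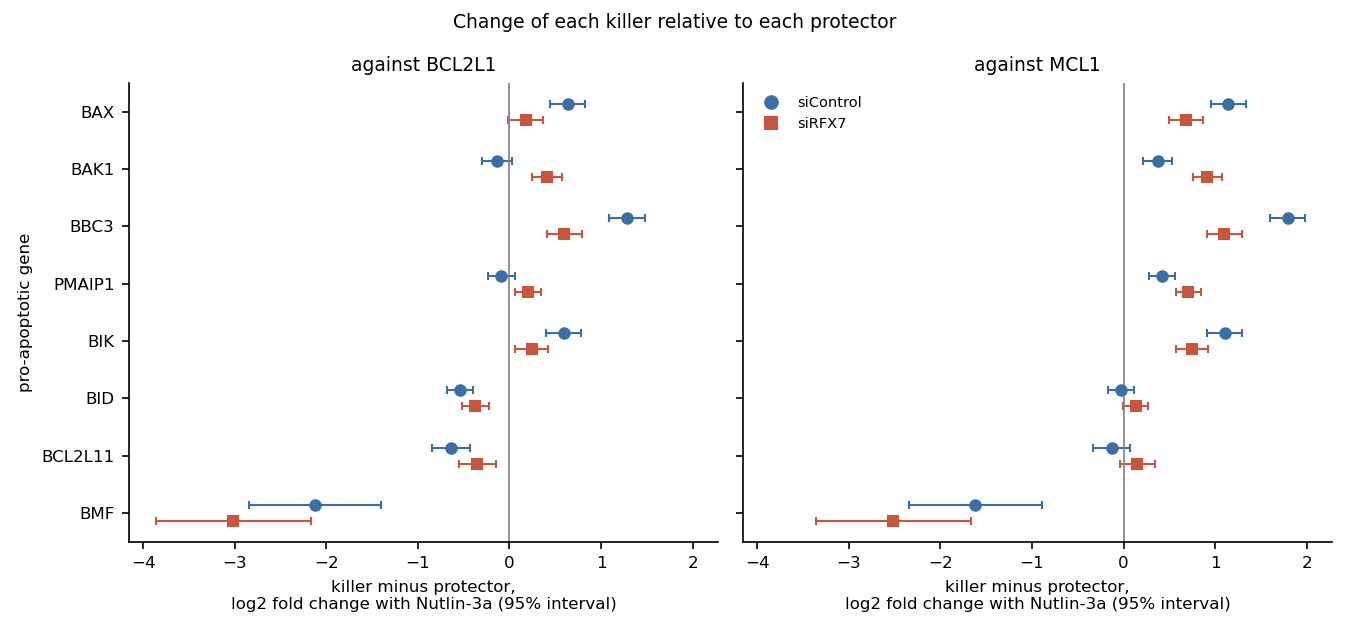
Log2 fold change with Nutlin-3a of each killer minus that of BCL2L1 (left panel) or MCL1 (right panel) in siControl (blue circles) and siRFX7 (red squares), with 95% intervals. Values right of 0 mean that the killer gained more than the protector, and BAK1 against BCL2L1 passes from -0.14 in siControl to 0.41 in siRFX7 while BBC3 drops from 1.28 to 0.60.

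Summaries over the family depended on how it was averaged. The killers' median minus the protectors' median was 0.14 for the Nutlin-3a response under siControl and 0.44 under siRFX7. With means in place of medians it was 0.13 and -0.01. These means include BMF, the least precisely measured member, with log2 fold changes of -1.25 and -2.24 at a mean of 24.0 normalized counts. As levels per kilobase of exon, the killers summed to 2719 normalized counts in siControl DMSO and 6246 in siControl Nutlin-3a, and to 3528 and 6844 in siRFX7. The protectors summed to 3471 and 5735 in siControl and to 3669 and 5638 in siRFX7, on the same scale. The ratio of killers to protectors was 0.783 and 1.09 in siControl (DMSO, Nutlin-3a) and 0.962 and 1.21 in siRFX7. The ratio therefore grew 1.39-fold with Nutlin-3a in siControl and 1.26-fold in siRFX7, and siRFX7 was the higher in both treatments, 1.23-fold in DMSO and 1.11-fold in Nutlin-3a. BAX supplied 26.9% to 33.4% of the killers' sum in the 4 groups and PMAIP1 19.9% to 26.5%. The changes of the sum came from other genes as well: BIK added 660 with Nutlin-3a under siControl and BBC3 719, on the scale per kilobase, while PMAIP1 added 524 and BAX 1353. These are ratios of RNA and are given without a test.

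Of 13 other BCL2 relatives, 11 were listed. In the authors' deposited tables, Nutlin-3a raised 3 and lowered 4 of them under each siRNA, beside 22% and 21.2% of all genes for siControl and 21.7% and 19.7% for siRFX7. BCL2L12 had the largest fall under siControl, with log2 fold changes of -1.90 under siControl and -2.07 under siRFX7 (from the authors' deposited tables). BCL2, the founding protector, fell by 1.69 under siControl and by 1.04 under siRFX7 on the log2 scale (from the authors' deposited tables). Its responses differed by 0.65 (adjusted p = 0.0462, z test) on the deposited scale, but not with equal group totals (0.62) or the median of all genes set to 0. BNIP3L, a mitophagy receptor, had a difference of -0.33 (adjusted p = 0.0172, z test). SiRFX7 raised 3 and lowered 5 of the 10 relatives listed in DMSO, and raised 0 and lowered 3 of 10 in Nutlin-3a (from the authors' deposited tables). Among all genes, 13.5% were higher and 15.5% lower in DMSO, and 15% and 13.6% in Nutlin-3a. With equal group totals, 3 relatives were higher and 3 lower in DMSO, where 3391 of 20026 genes were higher and 2262 lower.

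Downstream of the membrane step, the list of 20 genes of the mitochondrial apoptosis machinery had 8 higher and 3 lower with Nutlin-3a under siControl and 12 higher and 3 lower under siRFX7 (from the authors' deposited tables). The shares over all genes were 22% and 21.2% for siControl and 21.7% and 19.7% for siRFX7. With equal group totals, the 12 became 7, and the 8 stayed at 8. Over all 23195 genes, that scaling gave 4435 higher in siRFX7 and 4824 in siControl. APAF1, the scaffold of the apoptosome, rose by 1.27 and 1.68 on the log2 scale (from the authors' deposited tables), a difference of 0.41 (adjusted p = 0.0432, z test) that did not pass with equal group totals (0.38) or the median of all genes set to 0. BIRC5 (survivin), a gene of dividing cells, fell under both siRNAs, with log2 fold changes of -4.92 (siControl) and -6.14 (siRFX7, both from the authors' deposited tables), and the difference of -1.21 was called. BIRC3, a caspase-regulating ubiquitin ligase, rose by 1.29 and 1.48 (from the authors' deposited tables). The siRFX7 comparison gave 6 higher and 1 lower in DMSO and 10 higher and 3 lower in Nutlin-3a (from the authors' deposited tables), beside 13.5% and 15.5% of all genes in DMSO and 15% and 13.6% in Nutlin-3a.

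Of 9 enzymes that act on MCL1 or NOXA protein, 3 were higher and 1 lower with Nutlin-3a under siControl and 6 higher and 1 lower under siRFX7 (from the authors' deposited tables), where all genes had 22% and 21.2%, and 21.7% and 19.7%. With equal group totals, 3 were higher under each siRNA, where 4824 of 23195 genes were higher in siControl and 4435 in siRFX7. FBXW7, which marks MCL1 for destruction, rose by 0.79 and 1.08 (from the authors' deposited tables), a difference of 0.29 (adjusted p = 0.0296, z test) that did not pass with equal group totals (0.26) or the median of all genes set to 0. CDC20, a mitotic ubiquitin ligase subunit, fell under both siRNAs, with log2 fold changes of -4.32 and -5.34 (from the authors' deposited tables), and the difference of -1.01 was called. With siRFX7, 1 was higher and 1 lower in DMSO and 2 higher and 1 lower in Nutlin-3a (from the authors' deposited tables), beside the shares of all genes (13.5% and 15.5%, 15% and 13.6%). Equal group totals gave 3 higher and 1 lower in both treatments. Over all genes, that scaling gave 3391 higher and 2262 lower of 20026 in DMSO, and 3349 and 2310 of 19393 in Nutlin-3a.

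Of 9 transcription factors known to act on BH3-only genes, Nutlin-3a raised 3 and lowered 4 under siControl and raised 4 and lowered 3 under siRFX7 (from the authors' deposited tables), beside 22% and 21.2% of all genes for siControl and 21.7% and 19.7% for siRFX7. SiRFX7 lowered 8 of the 9 and raised none in DMSO (from the authors' deposited table), where 15.5% of all genes were lower and 13.5% higher. The count was again 8 with equal group totals, the scaling that moved the share of higher calls over all genes from 46.5% to 60.0%. In Nutlin-3a, 2 were higher and 5 lower (from the authors' deposited table), beside 15% and 13.6% of all genes. DDIT3 (CHOP) and ATF4, factors of the integrated stress response, had log2 fold changes of -1.87 and -1.47 under siControl and -0.08 and -0.55 under siRFX7 (from the authors' deposited tables). Their responses differed by 1.79 and 0.92, and both differences were called by the z test. Before any treatment effect, siRFX7 cells already had less of both RNAs (log2 fold changes -1.31 for DDIT3 and -1.04 for ATF4, authors' deposited table). Among treated cells, the siRFX7 effect was 0.48 for DDIT3 (from the authors' deposited table). For ATF4 it was -0.12 and did not pass (DESeq2 adjusted p = 0.254). The smaller falls under siRFX7 thus started from lower DMSO levels. TP73, a p53 relative, fell by 1.95 under siControl and by 1.24 under siRFX7 (from the authors' deposited tables), a difference of 0.71. MYC rose by 0.87 and 0.48 (from the authors' deposited tables), a difference of -0.39 (adjusted p = 0.0039, z test). E2F1, which drives S phase genes, fell under both siRNAs, with log2 fold changes of -4.57 and -4.71 (from the authors' deposited tables).

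**Figure D5:**
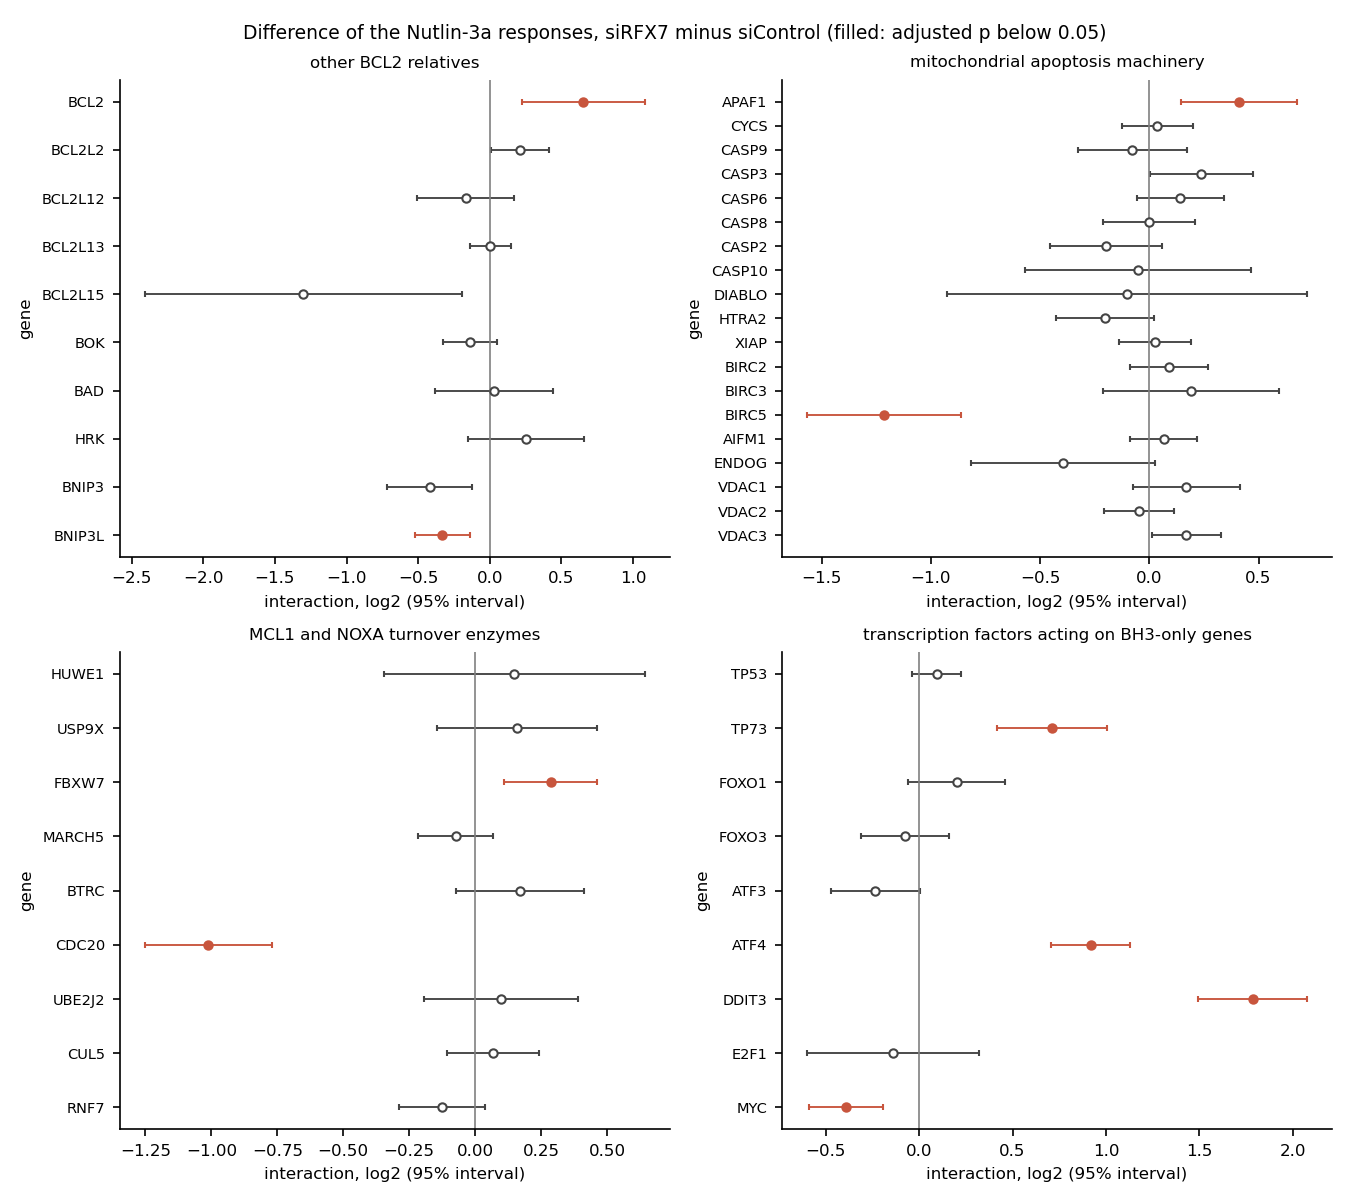
Log2 fold change with Nutlin-3a in siRFX7 minus that in siControl (horizontal axes, each panel with its own range) for the genes reported from 4 lists around the BCL2 family, with 95% intervals and filled red points where the adjusted p was below 0.05. DDIT3 at 1.79 and ATF4 at 0.92 lie farthest above 0 among the called genes, and BIRC5 at -1.21 and CDC20 at -1.01 farthest below.

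Genes whose 4 group means most resembled those of BBC3 and MCL1 were looked up among 10862 protein-coding genes with a mean of at least 100, by the distance between log2 group means after each gene's own mean was removed. For BBC3 they were NDRG4 (distance 0.064), KLLN (0.105) and DUSP10 (0.205). For MCL1 they were UBL3 (0.025), VPS16 (0.033) and DSTYK (0.035). With 4 points a gene, these distances describe likeness only.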

How the data were processed

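RNA of 12 libraries was sequenced, and 4 tables of group comparisons were used. Per the submitters' processing notes, the tools included bcl2fastq 2.20.0.422, Trimmomatic 0.39, cutadapt 2.10, FastQC 0.11.9, SAMtools 1.10, Picard, featureCounts 1.6.5 and DESeq2 1.20.0, with build hg38. The aligner, annotation and strand setting are not given in the sources used here. Per the file headers, the authors deposited the mean normalized count (a signal: counts over size factors), the log2 fold change with its standard error (log2), the test statistic (a score) and the p-value with its adjusted p-value. The statistic equalled the fold change over its standard error, and the adjusted p-value the Benjamini-Hochberg value within each table.

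The tables were read as siRFX7 over siControl because the 4 log2 fold changes then closed to within 1.27e-14. Group means and modelled SDs were recovered from the mean, the fold changes and the standard errors. Group totals were 25915992 to 27407526 normalized counts over 20026 genes, and depth of single libraries is unknown. The median standard error was 0.0869 to 0.0877 for genes with a mean of at least 100 and 0.458 to 0.708 below. The difference of Nutlin-3a responses went through a two-sided z test (Benjamini-Hochberg over 23195 genes), which treats standard errors as known. The code was tested on simulated data. Intervals are 95% model intervals. Alternatives were stricter thresholds, a minimum fold change, a minimum mean, other scalings and other averages, applied to the further lists after the data were seen. Coordinates and exon lengths came from GENCODE 29, which held 99.9% of the gene identifiers. Python 3.11.15, numpy 2.4.6, pandas 2.3.3, scipy 1.17.1 and matplotlib 3.10.9 were used.

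The members and lists were chosen with earlier results of these data known. By rule, all 10 members were named and, in each further list, the 2 genes with the largest called siControl response and every gene whose interaction was called, with 3 nearest patterns each for BBC3 and MCL1. BAK1P1, MIR4435-2HG and ABALON were named after their values were seen. So were the BCL2 relatives listed as raised or lowered by siRFX7. A gene of the machinery list is counted in it but not reported here.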

Additional observations from a re-analysis of the deposited data

Results flagged for a closer look

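The log2 response to Nutlin-3a differed between the siRNAs by the z test over all genes for 4 members. The value in siRFX7 minus that in siControl was -0.79 for BBC3, -0.56 for BAX, -0.46 for BIK and 0.44 for BAK1. For BBC3, BAX and BIK the DMSO level was higher in siRFX7 (recovered means 998 against 660, 2804 against 1889 and 590 against 355 normalized counts), and for BAK1 the DMSO means were 551 and 554.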

How the results depend on the processing

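No paired analysis was possible because the tables hold statistics of groups, and for the same reason the replicate block and the fits without 1 replicate were not run. Of 260 member results under the alternatives, 233 kept their direction and side of the threshold, 23 lost their call, 4 gained one and 0 reversed. The stricter threshold, the minimum fold change and the minimum mean leave log2 values unchanged, so no reversal was possible there. Adjusting over genes with a mean of at least 100 left 0 members lower in siControl and 0 in siRFX7, because BMF was not tested. Requiring an absolute log2 fold change of at least 0.58 left 2 members higher with siRFX7 in DMSO and 0 in Nutlin-3a, and 0 differences above 0 and 1 below. Over all 23195 genes, that minimum left 185 differences above 0 and 359 below. Compared as gains in normalized counts, 1 difference was called below 0 (BBC3) and 1 above (BAK1). The killer minus protector value with Nutlin-3a in siRFX7 was -0.01 (-0.0109) with means, BMF included. The median over killers of each gene's difference between the siRNAs, minus that over protectors, was -0.09, and 0.17 without BMF. This median of differences is another quantity than the difference of the medians 0.14 and 0.44. The causes were not tested. Low depth limits BMF alone among the members.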

Other observations

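The antisense gene ABALON lies within BCL2L1 and shares 1424 bases, or 43.0%, of its exons. Its recovered means were 11.7 and 52.7 normalized counts in siControl (DMSO, Nutlin-3a) and 30.7 and 19.5 in siRFX7. The log2 fold change with Nutlin-3a was 2.17 under siControl and -0.65 under siRFX7 (from the authors' deposited tables), a difference of -2.82 (adjusted p = 0.00466, z test over all genes). BCL2L1 had a mean of 10845 normalized counts in the authors' deposited table. Without the strand setting, reads of the 2 genes cannot be told apart.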
